A study of Mus musculus with 6 samples.

Results

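Tcf4, Spib, Irf8, Runx2, Bcl11a and Zeb2, transcription factors that regulate the plasmacytoid dendritic cell (pDC) lineage, were described across 3 groups of sorted mouse thymic dendritic cells. They were chosen by symbol with earlier results of these data known, so their calls are not independent evidence. They are 6 of the 23420 genes in the count files. All 6 were among the 8141 genes that passed the filter on low counts. Each group held 2 RNA-seq libraries from the thymus of wild type mice. The PBS pDC group was sorted as CD11c low B220+ cells 2 weeks after phosphate-buffered saline. The PBS Sirpa+ DC group was sorted as CD11c high Sirpa+ cells, a gate that takes conventional dendritic cells carrying signal regulatory protein alpha, from mice given the same PBS treatment. The YG+ pDC group was sorted by the CD11c low B220+ gate and for yellow-green (YG) microspheres that had been injected into a subcutaneous tumour of MC38, a colon carcinoma cell line. Tumours grew for 12 days before the injection and thymic cells were taken 2 days after it. The tumour, the microspheres and the YG gate therefore all separate YG+ pDC from PBS pDC, and their contributions cannot be told apart. The labels do not state the age of the mice, or whether libraries of 1 group are separate animals. The p-values below rest on the spread between libraries of the same group, pooled over the 3 groups, and that spread may be technical.

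Plasmacytoid dendritic cells are specialised producers of type I interferon and develop from precursors that can also give rise to conventional dendritic cells. Tcf4 encodes the E protein E2-2, a basic helix-loop-helix activator required to form and maintain the lineage, and Id2, which prevents E proteins from binding DNA, favours conventional dendritic cells. Spib is an Ets family activator, Irf8 an interferon regulatory factor, Runx2 a Runt domain factor needed for mature pDC to leave the bone marrow, Bcl11a a zinc finger factor acting upstream of Tcf4, and Zeb2 a zinc finger repressor required in pDC and also in some conventional dendritic cells. In the thymus both pDC and Sirpa+ DC include cells that enter from the blood.

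The question for PBS pDC against PBS Sirpa+ DC was how far these factors separate the 2 cell types. Of the 6 factors 4 were higher in PBS pDC: Spib by 10.5-fold, Runx2 by 7.67-fold, Tcf4 by 5.02-fold and Irf8 by 4.81-fold. Bcl11a had a 4.47-fold larger fitted level in PBS pDC that did not pass the test, and Zeb2 did not pass either. The called factors make 4 of 6 members called higher, against 4.54% of all tested genes called higher and 11.4% called in either direction. The members' median log2 fold change was 2.30, beside 0.08 over all tested genes. In these and all later comparisons a gene was called when edgeR's quasi-likelihood test gave a Benjamini-Hochberg adjusted p under 0.05, adjusted over all tested genes. Levels are in CPM, counts scaled to a common library size with the trimmed mean of M values (TMM). In bulk samples, fewer cells of a type and less RNA per cell cannot be told apart.

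**Figure D1:**
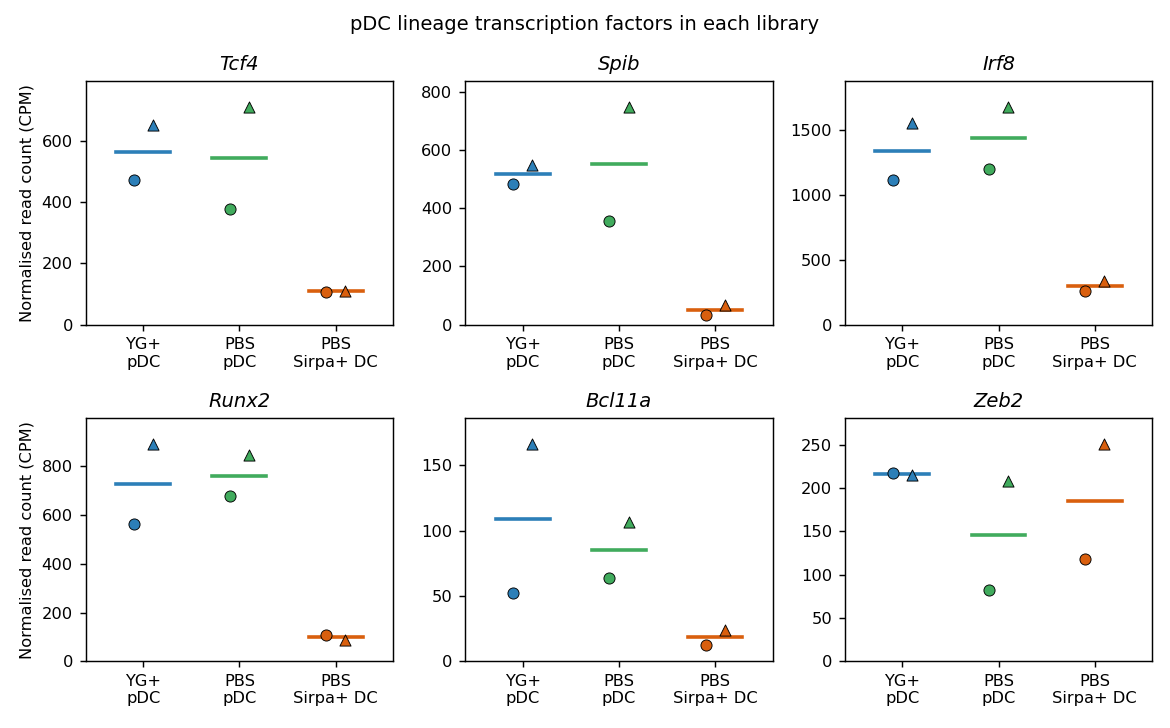
Level of each of the 6 factors in each of the 6 libraries, in CPM on linear axes that start at 0, with a circle for replicate 1, a triangle for replicate 2 and a line at the group mean. For 5 factors every pDC library lies above both PBS Sirpa+ DC libraries, whereas Zeb2 overlaps between PBS pDC and PBS Sirpa+ DC. Of all tested genes 22.9% lie wholly above PBS Sirpa+ DC in PBS pDC and 32.8% in YG+ pDC.

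The number of records assigned to genes was low and uneven. Records outside genes made up 97.7% to 99.5% of each library, with 19058505 to 22777061 in no feature. Gene counts summed to 713966 and 565406 in YG+ pDC, 177844 and 413846 in PBS pDC, and 261136 and 525418 in PBS Sirpa+ DC, and a count of 3 stood for 4.21 to 19.1 CPM. Replicate libraries correlated at 0.934 in YG+ pDC, 0.726 in PBS pDC and 0.855 in PBS Sirpa+ DC (log2 CPM over genes; genes are not independent of each other). The library with the fewest gene counts, PBS pDC replicate 1, gave lower CPM than replicate 2 for 6 of 6 members. Of all tested genes 53.3% were lower in it. Replicate 1 was also the lower for 5 of 6 members in YG+ pDC, where it has more gene counts, and in PBS Sirpa+ DC. The shares of tested genes were 51.5% and 51.3%. The pDC label was set beside a list of 16 pDC programme genes. The list was chosen with earlier results of these data known and is no independent check. The summed level of its genes was 7160 and 6880 CPM in PBS pDC and 5090 and 6880 in YG+ pDC, against 1240 and 1690 in PBS Sirpa+ DC. Of these genes 13 of 16 were called higher in PBS pDC than in PBS Sirpa+ DC and none lower. Of all tested genes 4.54% were called higher and 6.89% lower. The count of 13 was smaller when either Sirpa+ DC library was left out. Siglech, a pDC surface lectin, averaged 993.3 CPM in PBS pDC and 45.2 in PBS Sirpa+ DC (edgeR adjusted p = 0.00079). Klk1, Atp1b1 and Ly6d were also among the genes called higher, and Ly6d had no count in PBS Sirpa+ DC. A list of 11 Sirpa+ DC markers summed to 25800 and 30500 CPM in PBS Sirpa+ DC and to 8520 to 10700 in the 4 pDC libraries. H2-Ab1, at 8179 and 10300 CPM in PBS Sirpa+ DC, and Cd74, at 16300 and 18260, made up most of these sums. Of the list's 9 tested genes, 3 were called lower in PBS pDC (H2-Ab1, Mgl2 and Zbtb46) and 1, Clec10a, higher, beside the same shares of all tested genes. Both counts were smaller without either Sirpa+ DC library. Sirpa and Itgax (CD11c), genes of the gate, averaged 661.6 and 524 CPM in PBS Sirpa+ DC and 258.5 and 212.8 in PBS pDC. Neither passed the test (edgeR adjusted p = 0.0754 and 0.0988).

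Markers of other cell types moved with the gates. Their called counts stand beside 4.54% of all tested genes called higher and 6.89% called lower in PBS pDC. Fewer genes were called in this comparison when either Sirpa+ DC library was left out. A list of 10 B cell markers summed to 938 and 976 CPM in PBS pDC (10 of 10 detected), 876 and 725 in YG+ pDC (9 of 10, Vpreb3 at 0) and 207 and 77.8 in PBS Sirpa+ DC (6 of 10, with Ms4a1, Pax5 and Blk among those at 0). Of its 8 tested genes 7 were called higher in PBS pDC, Fcrla and Cd79a among them. The 10 T cell and thymocyte markers summed to 555 and 611 CPM in PBS pDC, 558 and 701 in YG+ pDC and 161 in each PBS Sirpa+ DC library. Of its 4 tested genes, Cd8b1, Lck and Cd8a were called higher in PBS pDC, whereas Cd3g and Ptcra were at 0 in all 6 libraries and Cd3e was at 0 in both PBS groups. The 9 macrophage markers summed to 3880 and 6250 CPM in PBS Sirpa+ DC, 370 and 211 in PBS pDC (7 of 9 detected, Mertk among those at 0) and 1800 and 726 in YG+ pDC (9 of 9 detected); 8 of 9, Csf1r, C1qa and Lyz2 included, were called lower in PBS pDC. The 7 markers of the cross-presenting cDC1 subset, which also uses Irf8, summed to 635 and 622 CPM in PBS Sirpa+ DC, 82.9 and 106 in PBS pDC (Batf3 at 0) and 157 and 168 in YG+ pDC; 4 of 6 tested were called lower in PBS pDC, Itgae, Clec9a and Xcr1 included. The 6 thymic epithelium markers summed to 6.38 to 142 CPM, with Foxn1 at 0 throughout and Epcam, the 1 tested gene, called lower in PBS pDC. B cells also transcribe Spib, Irf8, Bcl11a and Tcf4, and macrophages Zeb2 and Irf8. The part of these markers in the members' differences was not tested.

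Tcf4 lies on chromosome 18 (69343356 to 69689079, plus strand, GRCm38). Its level was 376.3 and 710.4 CPM in PBS pDC, 473.4 and 651.3 in YG+ pDC, and 105.8 and 111.6 in PBS Sirpa+ DC. All 4 pDC libraries were above both Sirpa+ DC libraries, and the 2 pDC groups overlapped. PBS pDC exceeded PBS Sirpa+ DC by 2.33 ± 0.48 on the log2 scale (SE, n = 2 and 2, 95% interval 1.28 to 3.38, edgeR adjusted p = 0.0109). The Sirpa+ DC libraries held 25 and 56 Tcf4 counts, so transcripts of the lineage factor were detected in those cells or in cells sorted with them.

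Spib lies on chromosome 7 (44525993 to 44532071, minus strand). It was measured at 357.2 and 747.4 CPM in PBS pDC, 484.6 and 547.5 in YG+ pDC, and 33.85 and 67.79 in PBS Sirpa+ DC, where it rested on 8 and 34 counts. Its PBS pDC libraries differed by more than its YG+ pDC libraries and spanned them, and no Sirpa+ DC library came near any pDC library. The difference between PBS pDC and PBS Sirpa+ DC was 3.39 ± 0.55 (log2, SE, 95% interval 2.20 to 4.59, edgeR adjusted p = 0.00319, n = 2 and 2). Among the 6 factors its fold change was the largest, although its interval overlapped those of Runx2, Tcf4, Irf8 and Bcl11a.

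Irf8 (chromosome 8, 120736358 to 120756694, plus strand) had the highest counts of the 6 in every library. It reached 1199 and 1678 CPM in PBS pDC and 1117 and 1559 in YG+ pDC, which overlapped, and 262.3 and 334.9 in PBS Sirpa+ DC. The lowest pDC library was thus well above the highest Sirpa+ DC library. The PBS difference was 2.26 ± 0.45 (log2, SE, 95% interval 1.28 to 3.25, edgeR adjusted p = 0.00942, n = 2 and 2).

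Runx2 (chromosome 17, 44495987 to 44814797, minus strand) was at 676.1 and 844.6 CPM in PBS pDC, 564.7 and 891.1 in YG+ pDC, and 110 and 89.72 in PBS Sirpa+ DC. The YG+ pDC libraries lay on either side of the PBS pDC libraries, and both groups stood apart from Sirpa+ DC. PBS pDC exceeded PBS Sirpa+ DC by 2.94 ± 0.47 (log2, SE, 95% interval 1.91 to 3.97, edgeR adjusted p = 0.00311, n = 2 and 2). A gene on the opposite strand, Runx2os1, overlaps 519 bases of Runx2 exon (5.87%), and the labels do not state whether the counting used strand, so reads there cannot be assigned to 1 gene.

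Bcl11a (chromosome 11, 24078056 to 24174123, plus strand) was the least abundant member in the 4 pDC libraries and in PBS Sirpa+ DC. It was at 63.78 and 106.4 CPM in PBS pDC, from 10 and 46 counts, at 51.97 and 166.4 in YG+ pDC, and at 12.69 and 23.92 in PBS Sirpa+ DC, from 3 and 12 counts. The pDC and Sirpa+ DC libraries did not overlap, as for 22.9% of all tested genes that lay wholly higher in PBS pDC. The difference in the PBS groups was 2.16 ± 0.69 (log2, SE, 95% interval 0.65 to 3.67, n = 2 and 2) and did not pass the test (edgeR adjusted p = 0.0678). Of 15 other settings it did not pass in 11, DESeq2 (adjusted p = 0.114) and limma-voom (0.126) among them. It passed with the replicate number as a block (adjusted p = 0.0269) and without the filter on low counts (0.0129). It also passed without YG+ pDC replicate 1 (0.0409), and without PBS pDC replicate 1 (0.0249). A predicted gene, 4930538E20Rik, lies opposite 316 bases of its exons (2.4%).

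Zeb2 (chromosome 2, 44983632 to 45117395, minus strand) did not follow the other 5 factors. It was at 82.92 and 208.3 CPM in PBS pDC, 217.7 and 214.7 in YG+ pDC, and 118.5 and 251.2 in PBS Sirpa+ DC. PBS pDC replicate 1 was the lowest of the 6 libraries, on 13 counts, and the 2 PBS groups overlapped. The PBS difference was -0.31 ± 0.52 (log2, SE, 95% interval -1.45 to 0.83, edgeR adjusted p = 0.782, n = 2 and 2), an interval that leaves room for a difference in either direction. Zeb2os and Gm27761 lie opposite 653 bases of its exons (3.27%).

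Each PBS Sirpa+ DC library weighed on these calls. Without Sirpa+ DC replicate 1 the adjusted p was 0.101 for Tcf4, 0.052 for Spib and 0.0996 for Irf8, and of the members only Runx2 was called. Without Sirpa+ DC replicate 2 it was 0.117 for Tcf4, 0.0869 for Irf8 and 0.0672 for Runx2, and of the members only Spib was called. All 4 called factors were higher in PBS pDC in each of these fits.

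**Figure D2:**
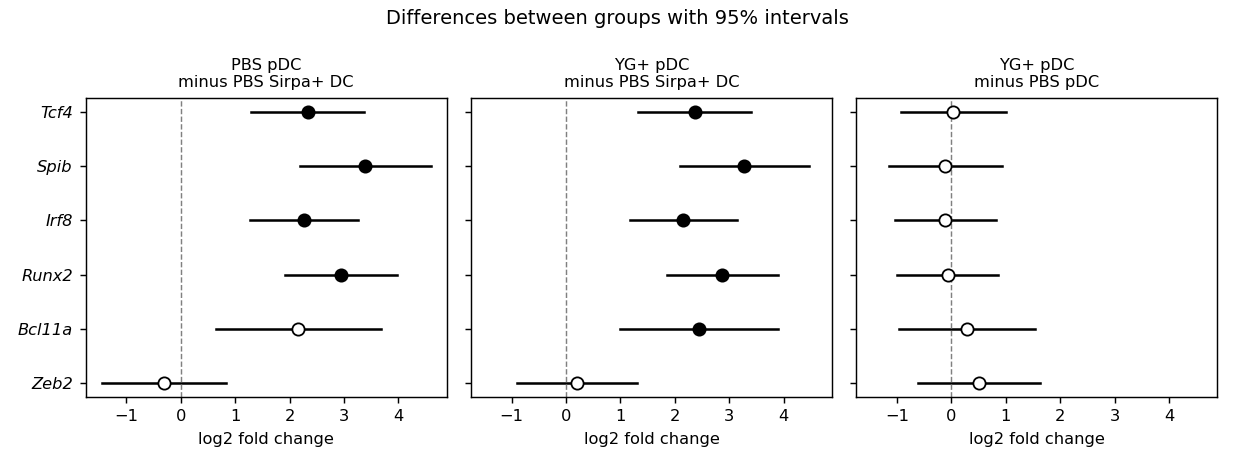
Log2 fold change of each factor with its 95% interval in the 3 comparisons, from the edgeR fit over 6 libraries, with filled points for called differences and open points for the others. Intervals for Tcf4, Spib, Irf8, Runx2 and Bcl11a lie above 0 against PBS Sirpa+ DC, and all 6 intervals of YG+ pDC minus PBS pDC include 0.

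YG+ pDC against PBS pDC asked whether thymic pDC that held microspheres after injection into the tumour differ in these factors from thymic pDC of PBS mice. None of the 6 was called, and none of the 8141 tested genes was called (0%) by edgeR, where 929 genes had an unadjusted p under 0.05 and DESeq2 called 135 and limma-voom 0. The members' median log2 fold change was -0.02, beside 0.08 over all tested genes. Tcf4 differed by 0.04 ± 0.44 on the log2 scale (SE, 95% interval -0.93 to 1.00, edgeR adjusted p = 0.987, n = 2 and 2). The Spib interval ran from -1.15 to 0.93, that of Irf8 from -1.04 to 0.83 and that of Runx2 from -0.99 to 0.86. They leave room for changes of these sizes in either direction and are not limits of detection. With 2 libraries a group larger fitted differences were not called either, such as 1.63 for Etv3 (edgeR adjusted p = 0.315). Bcl11a differed by 0.29 ± 0.57 (95% interval -0.96 to 1.54, adjusted p = 0.891), and its YG+ pDC libraries were the lowest and the highest of the 4. Zeb2 was the 1 member whose groups did not overlap: both YG+ pDC libraries were above both PBS pDC libraries, as for 26.5% of tested genes. Its fitted difference was 0.51 ± 0.51 (95% interval -0.61 to 1.63, edgeR adjusted p = 0.751, n = 2 and 2). The nearest libraries, at 208.3 and 214.7 CPM, were almost level, and the difference was 0.045 without PBS pDC replicate 1 and 1.42 without PBS pDC replicate 2. The macrophage markers given above were higher in summed level in both YG+ pDC libraries than in PBS pDC, and their part in the Zeb2 values was not tested.

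YG+ pDC against PBS Sirpa+ DC uses the same Sirpa+ DC libraries as the first comparison and is not independent of it. Here 5 of 6 members were called higher, beside 3.07% of tested genes called higher and 7.16% called in either direction, with a member median of 2.41 beside 0.04 over all tested genes. The log2 fold changes were 3.28 ± 0.54 for Spib (SE, n = 2 and 2, edgeR adjusted p = 0.00621) and 2.87 ± 0.47 for Runx2 (adjusted p = 0.00574). Those of Tcf4, at 2.36 ± 0.47 (adjusted p = 0.0136), and Irf8, at 2.16 ± 0.45 (adjusted p = 0.0155), were smaller. Bcl11a passed here at 2.45 ± 0.66 (95% interval 1.00 to 3.90, edgeR adjusted p = 0.0475), a call that was lost with DESeq2 (0.0532), with limma-voom (0.109) with relative log expression size factors (0.0558) and with 4 abundant non-coding transcripts left out (0.0506). All 5 lay wholly above the Sirpa+ DC libraries, as did 32.8% of tested genes. Zeb2 differed by 0.20 ± 0.50 (95% interval -0.90 to 1.30, adjusted p = 0.851), with the groups overlapping. Without YG+ pDC replicate 1 the Irf8 call was lost (adjusted p = 0.073), without YG+ pDC replicate 2 1 member (Spib) was called, and without either Sirpa+ DC library none was.

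To set the factors beside each other, CPM was divided by the merged exon length of each gene in kilobases. In PBS pDC the order was Irf8 at 204 ± 48 CPM per kb, Spib at 193 ± 96.2, Runx2 at 86 ± 13.5, Tcf4 at 19.8 ± 8.63, Zeb2 at 7.3 ± 4.44 and Bcl11a at 6.46 ± 2.29 (SD, n = 2). On this length Irf8 and Spib did not differ beyond their spread, nor did Zeb2 and Bcl11a. The order was the same in YG+ pDC, from 190 ± 44.3 for Irf8 and 180 ± 15.5 for Spib to 8.29 ± 6.14 for Bcl11a. In PBS Sirpa+ DC Irf8 came first at 42.3 ± 7.28, followed by Spib at 17.7 ± 8.37, Runx2 at 11.3 ± 1.62, Zeb2 at 9.27 ± 4.71, Tcf4 at 3.97 ± 0.151 and Bcl11a at 1.39 ± 0.603. In Sirpa+ DC the neighbours Spib, Runx2 and Zeb2 did not differ beyond their spread, and with the longest coding transcript as the length Zeb2 (20.3) came above Spib (18.2). Merged exon length sums all isoforms, so genes whose merged length far exceeds their longest transcript read lower on this scale. The 2 lengths were 27382 and 8577 bases for Tcf4, 7055 and 2847 for Irf8, and 2868 and 2788 for Spib. With the longest transcript PBS pDC had Irf8 at 505 CPM per kb, Spib at 198, Runx2 at 118, Tcf4 at 63.3, Zeb2 at 16 and Bcl11a at 14.2. The order was the same, but on that length Irf8 (421 and 589) lay above Spib (128 and 268) in both PBS pDC libraries without overlap.

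**Figure D3:**
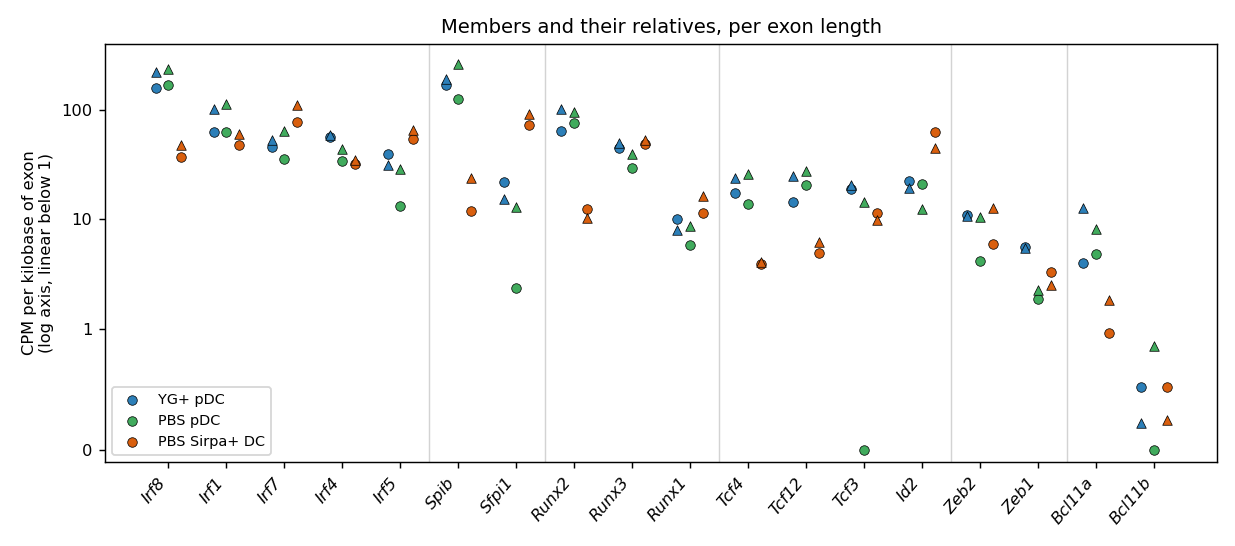
CPM per kilobase of merged exon for the 6 factors and related factors in the 3 groups, on an axis that is logarithmic above 1 and linear below it, with circles for replicate 1 and triangles for replicate 2. Irf8 and Spib lead in both pDC groups, at 180 to 204 CPM per kb on average, and in PBS Sirpa+ DC Sfpi1, at 82, exceeds Spib, at 17.7.

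Family members of the 6 factors did not share their pattern as a group. Of 16 paralogues 14 were tested, 1 was called higher in PBS pDC than in PBS Sirpa+ DC and 1 lower, with a median log2 fold change of -0.25. Of all tested genes 4.54% were called higher and 6.89% lower. Tcf12, which encodes the E protein HEB, was the paralogue called higher: it was at 318.9 and 425.8 CPM in PBS pDC, 223.3 and 382.9 in YG+ pDC, and 76.17 and 95.7 in PBS Sirpa+ DC. The difference was 2.11 (log2, edgeR adjusted p = 0.0151, n = 2 and 2). The third E protein gene, Tcf3, had 0 counts in PBS pDC replicate 1 and 57.85 CPM in replicate 2, against 46.55 and 39.87 in PBS Sirpa+ DC (adjusted p = 0.893). Among 12 E protein antagonists and cofactors, 6 were tested and 1, Id2, was called, lower in PBS pDC. Id2 was at 51.03 and 30.08 CPM in PBS pDC, 54.78 and 46.52 in YG+ pDC, and 152.3 and 109.7 in PBS Sirpa+ DC (log2 difference of the PBS groups -1.77, adjusted p = 0.0395, n = 2 and 2 by edgeR). This call was lost with DESeq2, with only the 4 libraries compared, and without YG+ pDC replicate 1 or 2 or Sirpa+ DC replicate 1 or 2. The Tcf12 call was lost without either Sirpa+ DC library. The list's median was -0.24, and Cbfa2t3, which encodes the corepressor ETO2 that restrains Id2 in pDC, averaged 103.6 ± 56.34 CPM in PBS pDC and 246.1 ± 12.9 in PBS Sirpa+ DC (SD, n = 2, edgeR adjusted p = 0.145). Ldb1 and Cbfa2t2, 2 further cofactors, did not pass the test.

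Among the Ets and interferon regulatory relatives, 1 was called between the PBS groups. Sfpi1, the symbol in these files for the gene encoding PU.1, a close relative of Spib, was at 6.378 and 34.71 CPM in PBS pDC, the first from 1 count, at 58.99 and 41.15 in YG+ pDC, and at 194.6 and 247.2 in PBS Sirpa+ DC. It was called lower in PBS pDC (log2 difference -3.15, edgeR adjusted p = 0.00628, n = 2 and 2) and in YG+ pDC (-2.13, adjusted p = 0.0242), against Spib called higher in both, and the PBS call was lost without Sirpa+ DC replicate 2. Irf4, a close relative of Irf8 used by Sirpa+ DC, did not pass: it was at 165.8 and 215.2 CPM in PBS pDC, 275.3 and 286.3 in YG+ pDC, and 156.6 and 169.5 in PBS Sirpa+ DC (adjusted p = 0.784 for the PBS groups and 0.643 for YG+ pDC against PBS pDC). Irf7, the interferon regulatory factor that drives type I interferon production in pDC, was at 133.9 and 243 CPM in PBS pDC and at 292 and 418.7 in PBS Sirpa+ DC (adjusted p = 0.253), and Irf5 had a log2 difference of -1.41 (adjusted p = 0.0784).

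Runx1 and Runx3 did not pass in the PBS groups. Runx1 was at 70.16 and 104.1 CPM in PBS pDC and 135.4 and 197.4 in PBS Sirpa+ DC (edgeR adjusted p = 0.238, n = 2 and 2). Runx3, a factor of several lymphoid and dendritic lineages, was at 146.7 and 196.7 CPM in PBS pDC, 226.1 and 248.7 in YG+ pDC, and 241.2 and 263.2 in PBS Sirpa+ DC (adjusted p = 0.476). Zeb1, the relative of Zeb2, was at 57.59 and 55.47 CPM in YG+ pDC, 19.13 and 23.14 in PBS pDC, and 33.85 and 25.92 in PBS Sirpa+ DC. Its difference between YG+ pDC and PBS pDC was 1.37 (log2, edgeR adjusted p = 0.378, n = 2 and 2). Bcl11b, the T lineage relative of Bcl11a, held 0 to 3 counts in each library and was not tested.

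Ratios of counts within 1 library do not depend on the scaling between libraries. The count ratio of Tcf4 to Id2 was 7.38 and 23.6 in PBS pDC, 8.64 and 14 in YG+ pDC, and 0.694 and 1.02 in PBS Sirpa+ DC. That of Spib to Sfpi1 was 8.21 and 13.3 in YG+ pDC, 56 and 21.5 in PBS pDC, and 0.174 and 0.274 in PBS Sirpa+ DC, so Spib held more counts in all 4 pDC libraries and Sfpi1 in both Sirpa+ DC libraries. Runx2 held more counts than Runx3 in all pDC libraries, with ratios of 2.5 and 3.58 in YG+ pDC and 4.61 and 4.29 in PBS pDC, and fewer in PBS Sirpa+ DC, at 0.456 and 0.341. For Irf8 to Irf4 the ratios were 7.23 and 7.8 in PBS pDC, 4.06 and 5.44 in YG+ pDC, and 1.68 and 1.98 in PBS Sirpa+ DC, above 1 in every library. Runx2 to Runx1 gave 4.67 and 9.22 in YG+ pDC, 9.64 and 8.11 in PBS pDC, and 0.812 and 0.455 in PBS Sirpa+ DC. Both YG+ pDC libraries were between the other 2 groups in 3 of the 7 ratios computed (Irf8 to Irf4, Spib to Sfpi1 and Runx2 to Runx3), and were not in Tcf4 to Id2, Runx2 to Runx1, Bcl11a to Bcl11b and Zeb2 to Zeb1. With 2 libraries against 2 an exact two-sided permutation test cannot go below 0.333, and the macrophage markers lay between the other 2 groups in the same way; their part in these ratios was not tested. The Zeb2 to Zeb1 ratio was 3.78 and 3.87 in YG+ pDC, 4.33 and 9 in PBS pDC, and 3.5 and 9.69 in PBS Sirpa+ DC, so the PBS Sirpa+ DC libraries overlapped both pDC groups and the YG+ pDC libraries lay just below the PBS pDC libraries. A ratio of 1 means equal counts, not equal levels per length.

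**Figure D4:**
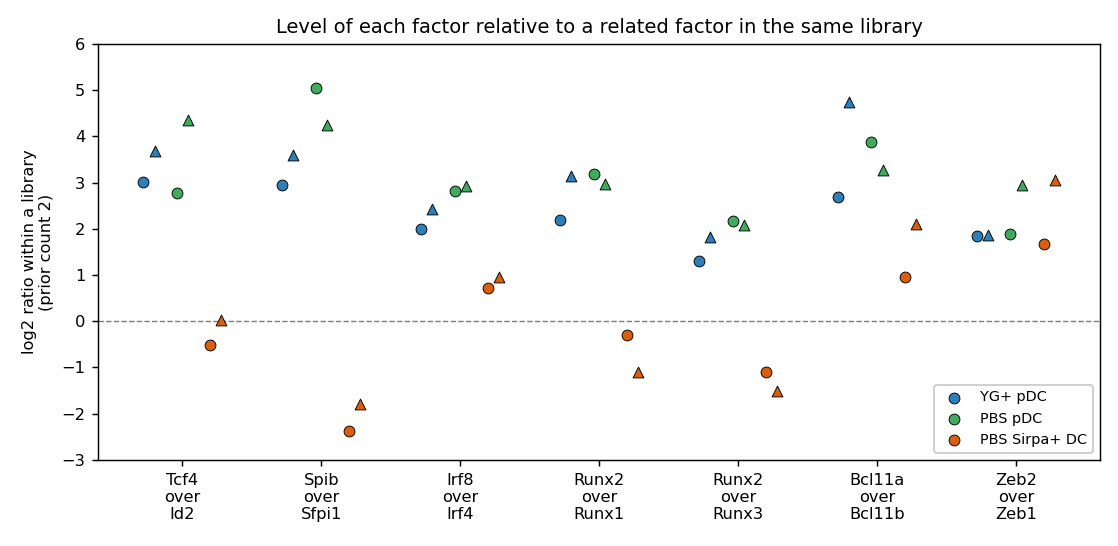
Log2 difference of CPM between a member and a related factor within each library (prior count 2), with circles for replicate 1, triangles for replicate 2 and a dashed line at equal counts. Tcf4 to Id2, Spib to Sfpi1 and Runx2 to Runx3 are above the line in all 4 pDC libraries, and in PBS Sirpa+ DC they are below it except for Tcf4 to Id2 in replicate 2, at 0.025.

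Other transcription factor lists put the 6 in context. Of 8 other pDC regulators all were tested, 2 were called higher in PBS pDC and none lower, with a median of 0.65. Of all tested genes 4.54% were called higher. Mef2c, a MADS box activator, averaged 201.2 ± 95.09 CPM in PBS pDC and 26.77 ± 4.027 in PBS Sirpa+ DC (log2 difference 2.96, edgeR adjusted p = 0.00518, SD, n = 2). Mef2c also counts among the called B lineage factors below, so the 2 lists are not separate. Xbp1, a factor of the secretory pathway, was at 892.9 and 798.3 CPM in PBS pDC and at 334.3 and 233.3 in PBS Sirpa+ DC (adjusted p = 0.0414 by edgeR). Myb, at 31.89 and 131.9 CPM in PBS pDC and 16.93 and 21.93 in PBS Sirpa+ DC, did not pass (adjusted p = 0.0529). The count of 2 called regulators became 4 without PBS pDC replicate 1, 1 without YG+ pDC replicate 1 or 2, and 0 without Sirpa+ DC replicate 1 or 2.

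Conventional DC transcription factors were mostly called in the opposite direction to the 6 factors: 13 of 19 tested were lower in PBS pDC and none higher, where 6.89% of all tested genes were called lower, with a median of -1.80. Id2 and Sfpi1, given above in other lists, are among the 13. The 13 became 8 with only the 4 libraries compared, 7 without Sirpa+ DC replicate 1 and 4 without Sirpa+ DC replicate 2. The repressor gene Etv3 was at 44.65 and 48.59 CPM in PBS pDC, 177 and 114.5 in YG+ pDC, and 482.4 and 540.3 in PBS Sirpa+ DC (edgeR adjusted p = 0.00154, n = 2 and 2 for the PBS groups). Zfp366, which encodes the DC factor DC-SCRIPT, and Nfil3 and Nr4a3 were called too, at adjusted p = 0.00318, 0.00441 and 0.00458. In the comparison of YG+ pDC with PBS Sirpa+ DC, 6 of the 19 were called lower in YG+ pDC, where 4.09% of all tested genes were, with a median of -1.27. Of 9 tested B lineage factors 5 were called higher in PBS pDC, where 4.54% of all tested genes were, and none was lower, with a median of 2.79; without Sirpa+ DC replicate 2 the 5 became 2. Ikzf3, a B lineage Ikaros relative, averaged 134.4 CPM in PBS pDC and 7.222 in PBS Sirpa+ DC (edgeR adjusted p = 0.00128, n = 2 and 2). Pax5 and Pou2af1, at 47.18 and 74.98 CPM in PBS pDC, had no count in PBS Sirpa+ DC, alongside the B cell markers given above. Of 9 T lineage factors 3 were tested, and Ets1 was called higher (114 against 3.987 CPM, adjusted p = 0.00496) while Notch1 and Tcf7 were not. In YG+ pDC against PBS pDC no gene of any of these lists was called.

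Among the 6 factors 5 varied together over the libraries. Pearson correlations of log2 CPM over the 6 libraries were 0.915 to 0.99 among Tcf4, Spib, Irf8, Runx2 and Bcl11a, and -0.029 to 0.228 between Zeb2 and those 5. They are descriptions without a test, since the points share libraries, depth and the split between cell types. Of 5102 candidate genes, the nearest to Tcf4 were Fgfr1op2 (0.999), Eepd1 (0.9988) and Tmem229b (0.9979). For Runx2 they included Ccr9 (0.9987) and Tmem63a (0.9968), where Ccr9 encodes the chemokine receptor that directs pDC to the thymus and gut. Slc44a2, a choline transporter family gene, was nearest to both Spib (0.9981) and Irf8 (0.9968), which were followed by Clcn3 and Gas7, and by St8sia4 and Sept1. Tmed3 (0.9963), Itgb7 (0.9799) and Man1b1 (0.9787) were nearest to Bcl11a. Zeb2 was nearest to Ghitm (0.9911), Sdha (0.9897) and Vcp (0.9854).

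The 250 bases before the start of transcription were read for members with a RefSeq window (GRCm38.p6): 5 of 6 members had one, with 9 windows in all, and Tcf4 did not. The windows shown are that of Spib, the member with the largest called fold change (chr7:44532072-44532321, minus strand), and the second Irf8 window, the 1 Irf8 window that held a motif, upstream of a start inside the gene (chr8:120738389-120738638, plus strand). The Runx2 window (chr17:44814628-44814877, minus strand) also ends at a start inside the gene; it overlaps an untranslated first exon in GENCODE M21 and is not printed. Each is written 5′ to 3′ on the gene's strand, with capitals at matches to the motifs searched.
Spib: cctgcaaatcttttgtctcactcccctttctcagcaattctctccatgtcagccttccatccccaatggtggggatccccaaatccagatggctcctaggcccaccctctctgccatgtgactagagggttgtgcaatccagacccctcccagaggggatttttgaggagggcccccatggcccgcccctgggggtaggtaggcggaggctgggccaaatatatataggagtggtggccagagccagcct
Irf8: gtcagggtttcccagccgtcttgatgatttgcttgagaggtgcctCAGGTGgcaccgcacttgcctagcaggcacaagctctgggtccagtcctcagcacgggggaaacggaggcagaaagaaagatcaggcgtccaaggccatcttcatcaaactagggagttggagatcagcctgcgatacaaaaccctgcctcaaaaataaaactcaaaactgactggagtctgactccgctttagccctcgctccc
On both strands the motifs searched were the E-box CAGGTG, found in 17.2% of 32851 windows of this length, the E-box CAGCTG (13%), the Runt motif TGTGGT (14%), the Ets motif GAGGAAGT (2.44%), the Ets-IRF composite element (2.3%) and the core interferon-stimulated response element (2.98%). The last 2 motifs can overlap each other and are searched as a fixed core with 2 free positions. The second Irf8 window held CAGGTG, 205 bases before the start (chr8:120738434-120738439), and the Runx2 window held the Runt motif on the strand opposite to the gene, read as ACCACA on the gene's strand, 80 bases before the start (chr17:44814702-44814707). In the other 7 windows, that of Spib included, none of these letters was found. A match is a description of the sequence and not a bound site.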

How the data were processed

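Sorted thymic dendritic cells were profiled by bulk RNA-seq from 5 ng of total RNA (Ovation SoLo kit), per the labels' protocols. The authors deposited 1 table of raw read counts per gene for each of 6 libraries. Base calling used bcl2fastq 2.17 and the build was mm10, per the submitters' processing notes; which aligner, counter, annotation and strandedness followed is not given in the sources used. The 5 summary lines at the foot of each table held 97.7% to 99.5% of all records (19058505 to 22777061 of them in no feature) and were left out of library sizes and tests. Genes were filtered with filterByExpr and tested with edgeR 4.0.16 (R 4.3.3; TMM, quasi-likelihood, 1 fit of group means over all 6 libraries, Benjamini-Hochberg adjustment over 8141 genes); the biological coefficient of variation was 33%. The method was also run on simulated counts in which all genes and groups shared the same dispersion. That simulation did not carry unequal spread between groups. Replicate counts differed beyond sampling noise (chi-square per degree of freedom 2.52 to 9.2).

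Lengths and positions come from GENCODE M21 on GRCm38, which matched 21777 of 23420 symbols (93%). The members and 13 gene lists were chosen with earlier results of these data known, so no list is independent evidence. Named genes are the members, up to 4 genes per list with the smallest p between PBS pDC and PBS Sirpa+ DC, Id2, Irf7, Irf4, Sfpi1, Runx1, Runx3, Bcl11b, Zeb1, Tcf3 and Tcf12, and for each member the 3 genes of highest Pearson correlation among those of at least 50 CPM. Within-library differences used a prior count of 2. Alternatives were other scalings and filters, DESeq2 1.42.0, limma-voom (limma 3.58.1), a replicate block, fewer libraries, and fewer genes. The level per longest transcript was chosen after seeing the data. Some genes that the naming rule selects are not reported here.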

Additional observations from a re-analysis of the deposited data

How the results depend on the processing

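In the 16 other settings the 4 factors called in PBS pDC against PBS Sirpa+ DC stayed higher in PBS pDC wherever they were fitted. The number of genes called was 580 there with only the 4 libraries compared. Against PBS Sirpa+ DC, YG+ pDC gave 894 without the filter on low counts and 1480 with only the 4 libraries compared, beside 583. YG+ pDC against PBS pDC gave 141 without the filter and 135 with DESeq2, beside 0. Leaving out 1 library at a time gave 214 to 1297 genes in PBS pDC against PBS Sirpa+ DC, 0 to 870 in YG+ pDC against PBS pDC and 69 to 1487 in YG+ pDC against PBS Sirpa+ DC. The members called then numbered 1 to 5, 0, and 0 to 5. These fits tested 8665 to 9494 genes, and the lone library of a group was taken to vary like the others. The 870 came without PBS pDC replicate 2, and with PBS pDC replicate 1 alone standing for its group. The cause of these shifts was not tested, beyond the fewer samples.

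Among genes whose exons overlap none on the other strand, 3 members could be tested. All 3 were called higher in YG+ pDC than in PBS Sirpa+ DC. Of the 5048 genes tested in that set 205 were called higher and 368 lower. Tcf4 in YG+ pDC against PBS pDC was -0.028 with relative log expression factors, -0.023 with only the 4 libraries compared and -0.15 in that gene set, beside 0.04.

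With 1 library left out at a time, log2 fold changes in YG+ pDC against PBS pDC ranged from -0.35 to 0.62 for Tcf4, -0.54 to 0.57 for Spib, -0.34 to 0.20 for Irf8, -0.40 to 0.24 for Runx2, -0.71 to 0.94 for Bcl11a and 0.045 to 1.42 for Zeb2. Zeb2 also ranged from -1.25 to 0.38 in PBS pDC against PBS Sirpa+ DC and from -0.25 to 0.87 in YG+ pDC against PBS Sirpa+ DC.

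The log2 balance of Bcl11a and Bcl11b in PBS pDC was 4.77 with a prior count of 0.5, beside 3.58 with a prior count of 2. Bcl11b held 0 and 3 counts there, so this balance depends on the prior count. That of Zeb2 and Zeb1 in YG+ pDC was 1.91 with a prior count of 0.5, beside 1.85. The balance of Tcf4 and Id2 in PBS Sirpa+ DC ranged from -0.51 to 0.025 with 1 library left out.

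With the replicate number as a block 942, 0 and 635 genes were called in the 3 comparisons, and the Bcl11a call given above was the 1 member call it changed. Deviations of same-numbered libraries correlated at -0.121 for the pDC groups, -0.099 for YG+ pDC and PBS Sirpa+ DC and 0.298 for the PBS groups. Since not every pair of groups exceeded 0.1 and the labels tie the numbers to no animal or batch, the libraries were not treated as paired.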
